A study of Arabidopsis thaliana with 4 samples.

Results

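The 10 core genes of the plant circadian clock were examined in RNA sequencing of dark-grown Arabidopsis thaliana seedlings that were kept in air or given ethylene. The genes were taken by locus: CCA1, LHY, TOC1, PRR9, PRR7, PRR5, PRR3, GI, ELF4 and LUX. All 10 were found among the 33414 loci named in the authors' deposited table, all were tested there, and none was lost to a filter on low values. Of the 4 libraries, 2 came from seedlings held for 4 hours in hydrocarbon-free air and 2 from seedlings held for 4 hours in that air with 10 ppm ethylene. Every library, controls included, was made from the srt1srt2 mutant in the Col background, in which the sirtuin genes SRT1 and SRT2 are mutated. Growth was in darkness for 3 days at 24 °C, and RNA was taken from seedlings without separating organs or cell types. The hour of harvest and any light or temperature cycle before it are not stated in the labels. Wild-type libraries were not analysed here, and no value below shows what the mutations do.

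The plant clock is a loop of transcription factors that repress each other in turn over the day. CCA1 and LHY are MYB-type factors that peak around dawn and repress evening genes through a promoter motif named the evening element. The pseudo-response regulators PRR9, PRR7, PRR5 and TOC1 follow in that order and repress CCA1 and LHY. In the evening ELF3, ELF4 and LUX form the evening complex, a repressor of genes such as PRR9, and GI helps the F-box protein ZTL to control the stability of TOC1 and PRR5. Clock output sets the daily timing of hypocotyl growth, and ethylene production by Arabidopsis seedlings is itself under clock control. Ethylene acts in the dark by shortening and thickening the hypocotyl and tightening the apical hook.

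Promoters are printed here for the pair of genes that fell, for TOC1 and LUX, which hold an evening element near the gene start, and for GI, whose evening elements lie further upstream. Each of the first 4 stretches runs from 250 bases before to 50 bases after the gene start annotated by RefSeq (TAIR10.1), and GI is shown from 824 to 568 bases before its start. All are written 5′ to 3′ on the strand of the gene. Capitals mark matches, on either strand, to the evening element (AAAATATCT), the CCA1 binding site (AAAAATCT), the G-box (CACGTG), EIN3-type sites (ATGTACCT or ATGTATCT) and LUX-type sites (GATACG or GATTCG).
CCA1, chr2:19245341-19245640, plus strand: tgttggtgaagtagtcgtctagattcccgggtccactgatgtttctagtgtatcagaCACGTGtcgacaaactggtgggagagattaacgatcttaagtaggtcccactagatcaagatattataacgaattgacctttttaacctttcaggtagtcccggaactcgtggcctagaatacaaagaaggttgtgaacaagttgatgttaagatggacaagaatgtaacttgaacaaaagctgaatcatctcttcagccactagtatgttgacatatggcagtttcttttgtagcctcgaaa
LHY, chr1:37822-38121, minus strand: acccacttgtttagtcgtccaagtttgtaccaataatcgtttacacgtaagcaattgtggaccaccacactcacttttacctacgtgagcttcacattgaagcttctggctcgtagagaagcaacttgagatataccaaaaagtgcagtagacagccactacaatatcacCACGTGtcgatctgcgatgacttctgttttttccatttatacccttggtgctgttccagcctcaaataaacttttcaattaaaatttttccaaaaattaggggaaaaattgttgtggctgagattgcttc
TOC1, chr5:24674713-24675012, plus strand: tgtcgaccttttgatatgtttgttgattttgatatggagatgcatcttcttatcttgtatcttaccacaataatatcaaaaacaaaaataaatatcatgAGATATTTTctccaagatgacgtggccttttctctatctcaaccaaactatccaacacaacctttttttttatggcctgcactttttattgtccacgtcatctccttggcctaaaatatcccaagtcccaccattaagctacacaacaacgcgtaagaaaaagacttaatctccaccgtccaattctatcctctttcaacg
LUX, chr3:17182792-17183091, plus strand: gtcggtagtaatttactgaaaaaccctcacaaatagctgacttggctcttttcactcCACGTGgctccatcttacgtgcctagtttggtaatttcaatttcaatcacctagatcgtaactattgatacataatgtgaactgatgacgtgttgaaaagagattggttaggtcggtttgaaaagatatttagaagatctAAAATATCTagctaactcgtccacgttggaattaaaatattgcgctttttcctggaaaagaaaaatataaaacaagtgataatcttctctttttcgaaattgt
GI, chr1:8060927-8061183, plus strand: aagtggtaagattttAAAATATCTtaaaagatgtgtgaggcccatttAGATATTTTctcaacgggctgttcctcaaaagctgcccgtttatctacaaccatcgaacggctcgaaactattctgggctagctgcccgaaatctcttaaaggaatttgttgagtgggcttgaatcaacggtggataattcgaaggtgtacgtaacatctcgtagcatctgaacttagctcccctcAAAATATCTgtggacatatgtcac

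CCA1 and LHY hold a G-box in these windows, beginning 193 and 80 bases before the start, and no evening element. The G-box lies in both within the string CACGTGTCGA, the longest string the 2 windows share on the gene strand. That string was present in 29 of the 27443 windows of protein-coding genes, or 0.106%, counting both strands. It was picked from the CCA1 and LHY windows, and any string of 10 letters is rare by its length, so this share tests nothing about the pair. The windows of PRR9 and PRR7, which were not called, hold its beginning, CACGTGTC. TOC1 and LUX hold an evening element that begins 151 and 53 bases before the start.

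CCA1 and LHY, the dawn pair, fell in ethylene, while none of the other 8 clock genes was called. A gene is called where the authors' deposited table gives a q (Benjamini-Hochberg adjusted p of the Cuffdiff test) of 0.05 or less. The 2 calls among 10 members stand beside 11.3% called among the 20786 tested entries with a named gene, 4.79% higher and 6.5% lower, and so small a count is not read as setting the clock genes apart. The unit of level, FPKM, counts sequenced fragments per kilobase of a transcript relative to library size, and each value is the authors' value pooled over the 2 libraries of a condition. No value per library could be given, so there is no SD and no statement on overlap between libraries. In whole seedlings, fewer cells of a type and less RNA per cell cannot be told apart.

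CCA1 (AT2G46830, TAIR10.1 chromosome 2, 19245591 to 19248915, up to 8 exons) was at 21.0 FPKM in air against 13.8 in ethylene. This is a 1.52-fold lower level, with a log2 ratio of -0.61 (standard error 0.25). The authors' deposited table gives it a Cuffdiff q of 0.0124. LHY (AT1G01060, chromosome 1, 33365 to 37871 on the minus strand, up to 10 exons) is the closest relative of CCA1 and overlaps it in function. It was at 15.9 FPKM in air against 11.3 in ethylene, 1.41-fold lower, with a log2 ratio of -0.50 (standard error 0.25). Its q in the authors' deposited table, by Cuffdiff, was 0.0432. Both genes of the pair were thus lower in ethylene.

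Both calls rest on the deposited p. The standard errors above are the log2 ratio divided by the deposited test statistic, and give 95% intervals of -1.10 to -0.11 for CCA1 and -0.99 to -0.0065 for LHY. Deposited p-values are smaller than a standard normal curve gives for that statistic. With a standard normal reference and Benjamini-Hochberg adjustment over all tested entries with a numeric statistic, CCA1 had an adjusted p of 0.193 and LHY of 0.396, so neither was called, while 5.78% of all tested entries were. At a q of 0.01 or less neither was called, against 8.14% of all tested entries. Among calls of at least 1.5-fold, 9.42% of all tested entries, only CCA1 stayed.

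**Figure D1:**
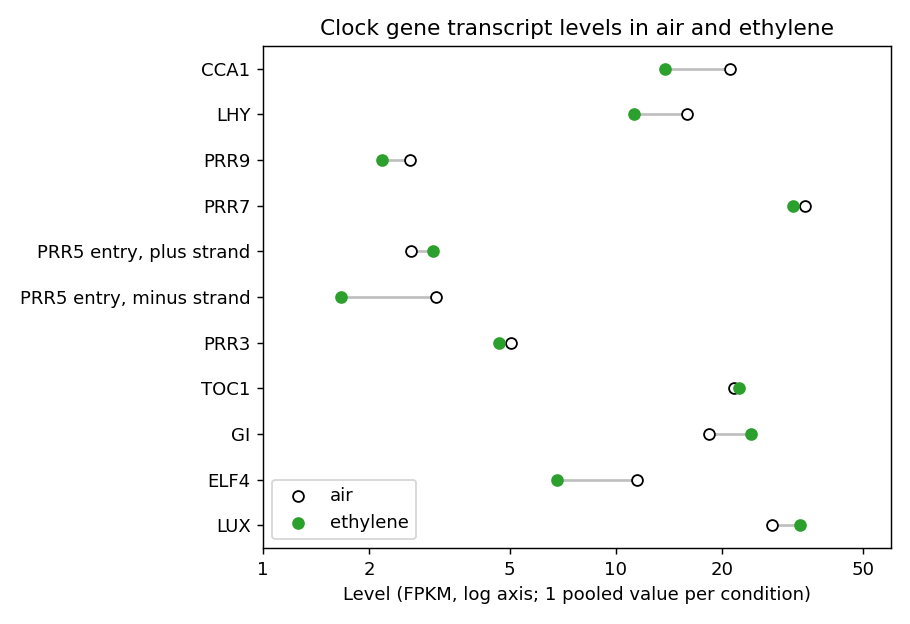
Level of each clock gene in air (open) and ethylene (green) in FPKM on a log axis, with 1 value per condition pooled by the authors from 2 libraries; PRR5 has 2 entries in the table, numbered with opposite strands. CCA1, LHY, ELF4 and the PRR5 entry numbered with the minus strand lie lower in ethylene, and of these only CCA1 and LHY were called. GI and LUX lie higher, while TOC1, PRR7 and PRR3 lie close together in both conditions.

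The 5 pseudo-response regulators, of which PRR9, PRR7, PRR5 and TOC1 repress CCA1 and LHY, gave no Cuffdiff call. By the entries taken none was at an unadjusted p under 0.05. Among all tested entries 11.3% were called and 20.5% were at such a p, so with 5 genes this is not read as setting them apart. PRR7 (AT5G02810, chromosome 5, 637681 to 642030) was at 34.4 FPKM in air against 31.7 in ethylene, and was the highest of the 10 genes in air. TOC1 (AT5G61380, chromosome 5, 24674963 to 24678550), the evening member, was at 21.6 FPKM in air against 22.3 in ethylene. These were the best measured of the 5: the 95% interval of the log2 ratio ran from -0.57 to 0.33 for PRR7 and from -0.39 to 0.49 for TOC1. PRR3 (AT5G60100, chromosome 5, 24197971 to 24201415), which is known to protect TOC1 protein, was at 5.05 and 4.66 FPKM. PRR9 (AT2G46790, chromosome 2, 19232607 to 19235179), the earliest of the series in the day, was at 2.61 FPKM in air against 2.17 in ethylene, the lowest of the 10 genes in air. Its interval, -1.28 to 0.75, is too wide to set its change apart from either that of CCA1 or 0. In the authors' deposited table the Cuffdiff q of these 4 genes lay between 0.777 and 0.925.

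PRR5 (AT5G24470, chromosome 5, 8356204 to 8358546 on the minus strand), which acts between PRR7 and TOC1 in the day, has 2 entries that disagree. The entry taken by the rule, that with the higher mean, was at 2.63 FPKM in air against 3.02 in ethylene, with a log2 ratio of 0.20 (standard error 3.21). The other was at 3.10 FPKM in air against 1.66 in ethylene, 1.87-fold lower, with a log2 ratio of -0.90 (standard error 0.54). Neither was called: the authors' deposited table gives Cuffdiff q values of 0.974 and 0.128. Unadjusted, the p of the second entry was 0.0203 in the authors' deposited table. Entry numbers in the table run through the plus strand of a chromosome and then through its minus strand, a pattern that held for 98.0% of 31181 entries naming a single gene. By that pattern the entry taken by the rule lies on the plus strand, opposite to the annotated gene, and the other lies on the strand of PRR5. Entries on both strands under the name of a single gene were found for 419 loci. A further entry of the same span, AT5G24460, a RING-H2 zinc finger gene on the plus strand, was at 11.0 FPKM in air against 18.2 in ethylene and was not called (Cuffdiff q of 0.0803 in the authors' deposited table). Whether the libraries keep strand is not given in the sources used here, so reads of these 3 entries may not be separable.

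GI and LUX, both evening genes, had higher values in ethylene, and ELF4 a lower value, with no call in the authors' deposited table. GI (AT1G22770, chromosome 1, 8061751 to 8067790, 14 exons), a large protein that links the clock to flowering, was at 18.4 FPKM in air against 24.2 in ethylene. Its log2 ratio was 0.40 (standard error 0.22). The unadjusted p in the authors' deposited table was 0.0093 and the Cuffdiff q 0.0729, which makes GI the nearest to the threshold of the 8 genes not called. LUX (AT3G46640, chromosome 3, 17183042 to 17186959), the DNA-binding subunit of the evening complex, was at 27.7 FPKM in air against 33.3 in ethylene. The log2 ratio of LUX was 0.27 (standard error 0.25), and its Cuffdiff q in the authors' deposited table was 0.427. ELF4 (AT2G40080, chromosome 2, 16734294 to 16734953), a small protein of the same complex encoded by a single exon, was at 11.5 FPKM in air against 6.79 in ethylene. At 1.69-fold lower this was a wider gap than that of CCA1, but the gene spans only 660 bases and the standard error was 0.55 on a log2 ratio of -0.75. The authors' deposited table gives ELF4 a Cuffdiff q of 0.254.

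**Figure D2:**
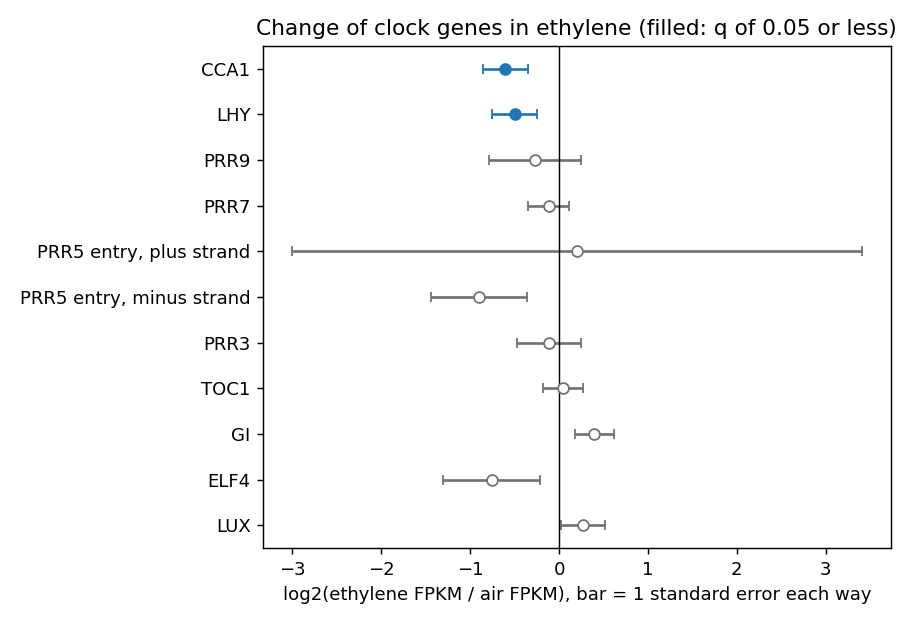
Log2 ratio of ethylene over air FPKM for each clock gene, with bars of 1 standard error each way (the log2 ratio divided by the deposited statistic). Filled points, CCA1 and LHY at -0.61 and -0.50, have a deposited q of 0.05 or less; the bar of the PRR5 entry numbered with the plus strand spans 3.21 each way.

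In air the levels ran, from the highest down, PRR7, LUX, TOC1, CCA1, GI, LHY, ELF4, PRR3, PRR5 and PRR9. The order in ethylene was LUX, PRR7, GI, TOC1, CCA1, LHY, ELF4, PRR3, PRR5 and PRR9. Both orders use the PRR5 entry taken by the rule; with the entry on the strand of PRR5, at 1.66 FPKM in ethylene, PRR5 and not PRR9 is last there. CCA1 passed from place 4 to place 5 and GI from place 5 to place 3. With pooled values alone, neighbours in these orders could not be tested against each other. All 10 genes were above 1 FPKM in both conditions. By mean level they lay between percentile 16.9 (PRR9) and percentile 76.1 (PRR7) of the tested entries, by the same PRR5 entry; the other has a mean of 2.38 FPKM, just under the 2.39 of PRR9. The change log2((ethylene FPKM + 1)/(air FPKM + 1)) had a median of -0.11 over the 10 genes, within a range of -0.68 to 0.38, against a median of 0.0078 over all tested entries with a named gene. By the entries taken, 3 members, CCA1, LHY and GI, were at an unadjusted p under 0.05, and with the entry on its own strand PRR5 was too, where 20.5% of all tested entries met that limit.

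Some of the members lie close to other clock genes. PRR9 and CCA1 are 10.4 kb apart on chromosome 2, with 3 annotated genes between them. PRR7 lies 6.62 kb from RVE4, a MYB-type activator of evening genes, on chromosome 5, with 4 genes between. RVE4 was at 112 FPKM in air against 97.9 in ethylene and was not called, with a Cuffdiff q of 0.517 in the authors' deposited table. In the annotation the 3′ part of LUX overlaps AT3G46650, a glycosyltransferase gene on the other strand, by 1507 bases, though the entry of LUX in the table ends short of that gene. AT3G46650 was low, at 0.612 FPKM in air against 0.404 in ethylene.

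Evening elements were found in the windows of several clock genes but not in those of CCA1, LHY, PRR7 and PRR3. Within the 300-base windows 4 of the 10 genes held at least 1, namely TOC1, PRR9, PRR5 and LUX, where 2.82% of 27443 windows of protein-coding genes did. From 1000 bases before the start, GI and ELF4 were added, giving 6 of 10 against 7.65%. GI and PRR5 each held 3, and the stretch of GI printed above holds all of its 3. None of these 6 genes was called, nor were PRR7 and PRR3, which hold no evening element. This motif was defined on clock-regulated promoters, so its presence here is a description of the members and nothing the present libraries show.

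A G-box, the site of bHLH factors such as the PIFs and of bZIP factors, stood in 5 of the 10 short windows (CCA1, LHY, PRR9, PRR7 and LUX), against 7.68% of all windows. The CCA1 binding site was in the short window of 1 gene, PRR5, against 7.88%. LUX-type sites of the form GATACG were in that of ELF4 alone, against 5.54%, and those of the form GATTCG in that of PRR9 alone, against 9.58%. In the longer windows these 4 motifs were held by 5, 3, 3 and 7 genes in that order, against 15.9%, 22.1%, 17.7% and 29.4%. An EIN3-type site, the letters bound by the master regulator of ethylene responses, was in none of the 10 windows of either length, which says only that these letters are not there. Among all promoters 1.91% of the short and 8.11% of the long windows held either form. No match of these motifs in the members overlapped another.

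**Figure D3:**
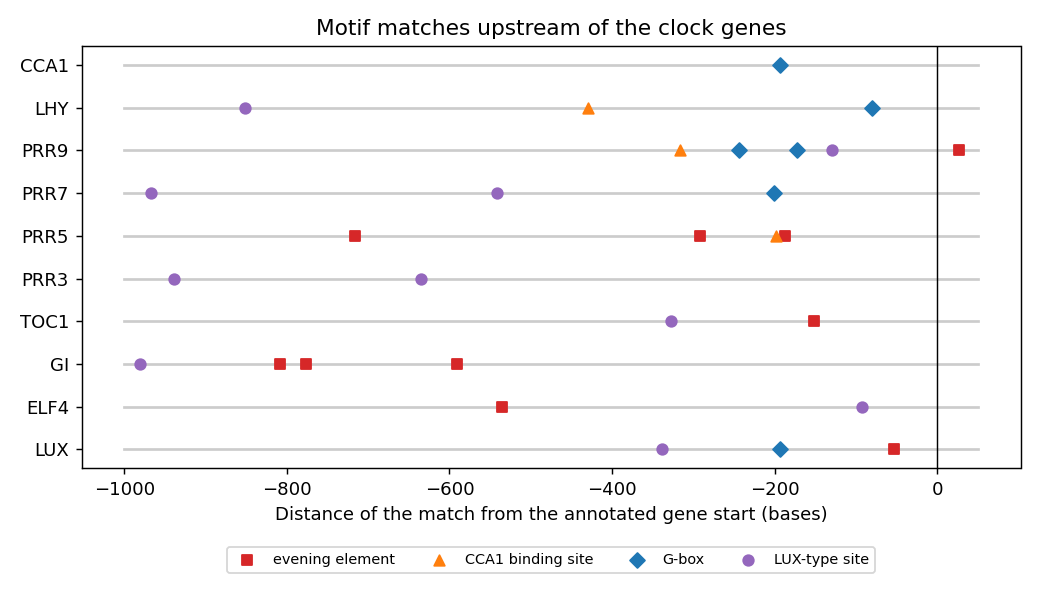
Position of the first base of each motif match, in bases from the annotated gene start, for the 10 clock genes over 1000 bases before to 50 after it; squares are evening elements, triangles CCA1 binding sites, diamonds G-boxes and circles LUX-type sites. Evening elements lie upstream of TOC1, PRR5, GI, ELF4 and LUX and just inside PRR9, and none was found for CCA1, LHY, PRR7 or PRR3.

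Of 53 further clock pathway genes, 10 fell and none rose. The list covers relatives of CCA1, coactivators, evening complex partners, F-box proteins, other regulators and output genes, and 52 of its members were tested. The 19.2% called stand beside 11.3% of all tested entries, and the 10 lower beside 6.5%. The lists were chosen with earlier results of these data known, so such shares, here and by list below, are not read as setting these genes apart. Median change over the 52 genes was -0.05 on the log2 scale with a pseudocount of 1 FPKM, within a range of -2.27 to 0.39. With the standard normal reference 7 of the 52 tested genes, all among those 10, were called lower, beside 3.2% of all tested entries.

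The REVEILLE factors share the MYB-type domain of CCA1 and LHY. Among 8 of them 3 fell and none rose, beside 6.5% called lower among all tested entries, and their median log2 change was -0.24. RVE1 (AT5G17300), which ties the clock to auxin levels and hypocotyl growth, went from 12.9 FPKM in air to 5.14 in ethylene, a log2 ratio of -1.33 (standard error 0.32). RVE7 (AT1G18330), a clock- and light-responsive factor also named EPR1, went from 12.0 to 6.36 FPKM. ASG4 (AT1G01520), annotated as a homeodomain-like protein of this class, went from 9.65 to 4.74 FPKM. In the authors' deposited table the Cuffdiff q values were 0.000878, 0.00302 and 0.0225 in that order. With the standard normal reference only that of RVE1 was kept, at an adjusted p of 0.000959, while those of RVE7 and ASG4 were 0.101 and 0.237. CCA1 and LHY, the only called members, were also counted with them, a grouping that was not planned and is not read as support. In it 5 of 10 genes fell by the deposited q and 1, RVE1, with the standard normal reference. Among all tested entries 6.5% and 3.2% did. A lower value in ethylene was found in 9 of these 10 genes and in 10176 of all 20786 tested entries.

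The LNK proteins, coactivators that work with REVEILLE factors, had lower values in ethylene in 4 of 4 genes, with none called by Cuffdiff, 1 at an unadjusted p under 0.05, and a median of -0.25. Among all tested entries 20.5% were at such a p, so 1 of 4 is near that share. Values were lower in ethylene in 10176 and higher in 10610 of all 20786 tested entries. LNK2 had the widest gap of the LNK genes, at 47.6 FPKM in air against 36.4 in ethylene, with a Cuffdiff q of 0.0779 in the authors' deposited table. Evening complex partners gave no Cuffdiff call in 6 and 0 at an unadjusted p under 0.05, with values higher in 5. BOA, the closest relative of LUX, was the exception, at 18.2 FPKM in air against 14.3 in ethylene and a q of 0.353 in the authors' deposited table. The 3 ZTL-type F-box genes had slightly higher values, with a median of 0.14, no Cuffdiff call and 0 at an unadjusted p under 0.05. Lists this short, even with no call, cannot be told apart from the 11.3% called among all tested entries.

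Among 19 further regulators 2 fell and none rose, so 10.5% were called, a share near the 11.3% of all tested entries, and the median was 0.02. TCP21 (AT5G08330, chromosome 5), also known as CHE, a TCP factor that binds and represses the CCA1 promoter, went from 46.7 FPKM in air to 13.3 in ethylene. This 3.51-fold fall had a log2 ratio of -1.81 (standard error 0.28). JMJD5 (AT3G20810), a jumonji-domain protein that acts in the clock, went from 26.7 to 11.9 FPKM, a log2 ratio of -1.16 (standard error 0.36). For both, the authors' deposited table gives a Cuffdiff q of 0.000878, the smallest it holds, and both were also lower under the standard normal reference. AT4G33980, which the annotation gives only as an uncharacterised protein, was at 7.14 FPKM in air against 9.55 in ethylene and was not called.

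Clock output genes gave 5 falls in 12 tested genes and no rise, beside 6.5% called lower among all tested entries, with a median of -0.34. The cycling DOF factors CDF1 and CDF3 repress the flowering regulator CONSTANS. CDF1 went from 4.86 FPKM in air to 1.21 in ethylene, a log2 ratio of -2.00 (standard error 0.67), and CDF3 from 14.3 to 7.86. AT1G69570, annotated as a Dof-type zinc finger protein, fell most, from 16.1 to 2.56 FPKM, a log2 ratio of -2.65 (standard error 0.61). CDF2, chosen for mention once its values were known, was at 12.6 FPKM in air against 14.1 in ethylene and was not called. CCL, whose transcript stability is under clock control, went from 364 to 138 FPKM, and the growth-promoting bHLH factor PIF4 from 48.2 to 21.8. The authors' deposited table gives a Cuffdiff q of 0.0103 for CDF1 and 0.000878 for the other 4. That of CDF3 was lost with the standard normal reference, at an adjusted p of 0.0608, and that of CDF1 was kept only narrowly, at 0.0472.

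Other output genes were not called in the authors' deposited table. PIF5, a relative of PIF4, was at 25.8 FPKM in air against 20.6 in ethylene. The clock-regulated catalase genes differed in sign, CAT2 at 280 and 217 FPKM and CAT3 at 3136 and 4103. CONSTANS itself was not tested by the authors, at 0.296 FPKM in air against 0.473 in ethylene.

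**Figure D4:**
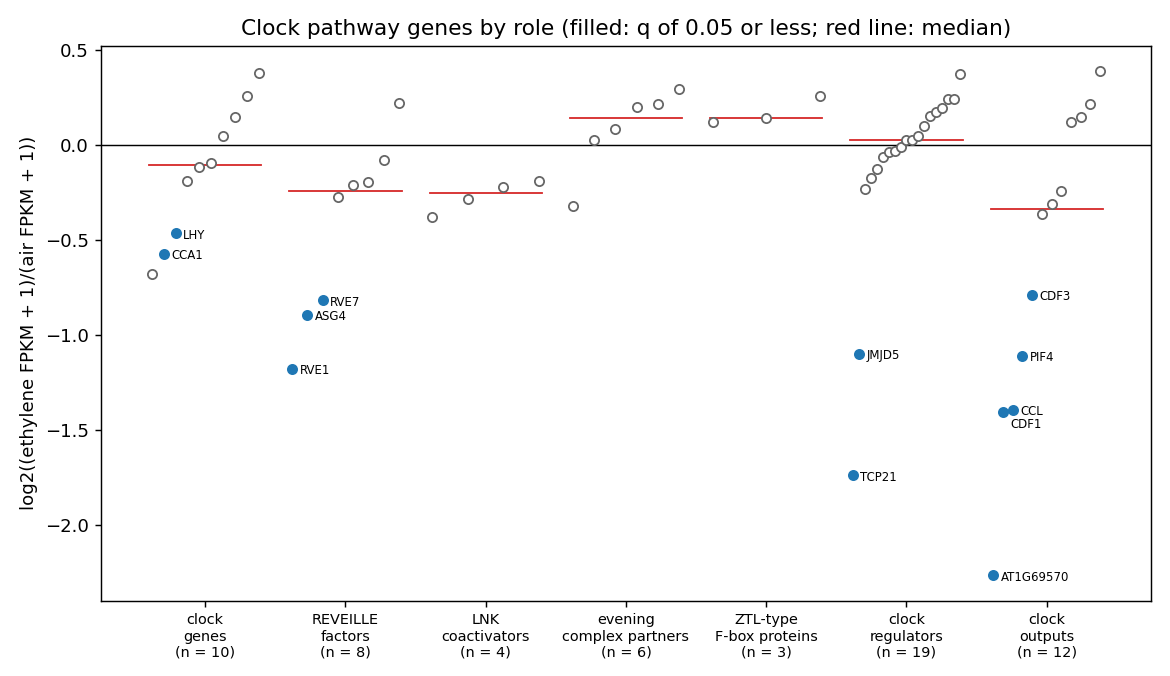
Change on the log2((ethylene FPKM + 1)/(air FPKM + 1)) scale of the 10 clock genes and of 52 tested clock pathway genes by role, with filled points for a deposited q of 0.05 or less and red lines at the median of each group. All 12 filled points lie below 0, and AT1G69570, TCP21, CDF1, CCL and RVE1 lie lowest.

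As a check on the treatment, all 6 of ETR2, ERS2, EBF2, ERF1, ARGOS and CTR1, genes known to respond to ethylene, were called higher in the authors' deposited table. SRT1 and SRT2 were under 4 FPKM in both conditions and neither was called, which does not check the genotype. Markers of the dark-grown state, PORA, PORB, PIF3 and HLS1, were called higher in 4 of 4, with a summed level of 1168 FPKM in air against 1741 in ethylene. PORA and PORB make up most of that sum, and their 2 calls were lost with the standard normal reference (adjusted p of 0.101 and 0.315). Every library was dark-grown, and whether these rises reflect that state or a response of the genes to ethylene was not tested. Of 3 genes typical of light-grown tissue, the shared entry of LHCB1.1 fell by the deposited q but not with the standard normal reference (adjusted p of 0.209), and the summed level was 3306 and 3304 FPKM. That sum is mostly RBCS1A, at 2510 FPKM in air against 2769 in ethylene, while LHCB1.1 was at 786 and 527. Root hair markers rose in 5 of 6 by the entries taken, and in 4 with the standard normal reference, with a summed level of 60.7 FPKM in air against 119.7 in ethylene. PRP3, the most abundant of this list at 35.5 FPKM in air against 56.0 in ethylene, has a second entry. That entry was at 16.6 FPKM in air against 14.4 in ethylene, with a Cuffdiff q of 0.937 in the authors' deposited table. Xylem markers gave no call in 5, at 275 and 322 FPKM. Guard cell lineage markers also gave no call in 5, at 5.93 and 4.78 FPKM, and in both lists 0 were at an unadjusted p under 0.05 by Cuffdiff. Among all tested entries 11.3% were called, 4.79% higher and 6.5% lower, and 5.78% were called with the standard normal reference. Lists of 5 with no call are too short to be told apart from the 11.3%. No marker of these lists was at 0 in either condition. What part the differing marker levels have in the falls of the clock genes was not tested.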

How the data were processed

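Seedling RNA was sequenced in 2 libraries in air and 2 in ethylene. The authors deposited 1 table with a pooled FPKM value per gene and condition, the p-value and q-value of their Cuffdiff test and its test statistic score, per the file headers. The submitters' processing notes name TopHat2 2.0.9, Cuffdiff 2.2.1 and the build TAIR10. The title of the table names SRT1 alone, and the labels, which name both genes, were followed. Sources used here do not give annotation, strand setting or normalisation. Library depth is unknown, so no interval that needs it is given, and labels do not say whether libraries of a condition came from separate plants, so p-values may measure technical spread. In the deposited log2 fold column some cells had been turned into text, and folds were recomputed from FPKM.

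From this table, with Python 3.11.15, pandas 2.3.3, numpy 2.4.6 and scipy 1.17.1, 1 entry was taken per locus: that naming it alone, then the higher mean. Calls are q of 0.05 or less. The q column matched Benjamini-Hochberg adjustment over 21076 tested entries to within 5.25e-07. Standard errors are the log2 ratio divided by the statistic. The median ratio of the normal quantile of p to the statistic was 1.43 over 17640 entries, so calls with a standard normal reference are also given. Benjamini-Hochberg adjustment and the choice of entry were tested on simulated data. Members and gene lists were chosen with earlier results of these data known. Named genes are the 10 members, every called gene of the other lists and the 6 with the widest change among the rest at 1 FPKM or more. RVE4 and CONSTANS were added with their values known. Of the 53 further loci, the annotation lacks the listed symbol for 5, which are given by locus or by its own symbol. Sequences and gene positions come from RefSeq TAIR10.1, whose nuclear chromosomes are those of TAIR10: of the entries naming a single gene, 45.0% share an exact start or end with it. Protein sequences were not analysed here. There were 0 unused columns of per-sample values.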

Additional observations from a re-analysis of the deposited data

How the results depend on the processing

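The count of 2 called clock genes fell to 0 at a q of 0.01 or less (8.14% of all tested entries called) and to 0 with the standard normal reference (5.78% called), and to 1, CCA1, when at least a 1.5-fold change was asked (9.42% called). It was 2 when adjusted over entries at 1 FPKM or more, over all entries naming a locus, and with the PRR5 entry of the minus strand, the last tried after the data were seen. No second tool could be run on these counts of 0, since the table gives no read counts, and 3 members, by the entries taken, had an unadjusted Cuffdiff p under 0.05. Of the 6 ethylene-response genes 5 were called with the standard normal reference, a setting added after the data were seen; ERF1, at 0 in air, has no numeric statistic. The 10 falls among further clock genes became 8, 7 and 10 under the first 3 of these settings. The median change of the 10 clock genes ranged from -0.15 to -0.07 over pseudocounts of 0.1 and 5 FPKM, centring, summed entries and the minus-strand PRR5 entry. With that entry the log2 change of PRR5 went from 0.15 to -0.62. No paired analysis was possible because the table holds 1 pooled value per condition, and for the same reason no library could be left out. The depth behind low genes such as PRR9 and PRR5 is unknown.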
